A study of Homo sapiens with 40 samples.

Results

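The chaperones of the endoplasmic reticulum (ER) and the genes of the unfolded protein response were taken as a list of 36 gene symbols, each of which matched 1 row of the 62754 genes in the 3 deposited count tables. The members are given by symbol, and the list was chosen with earlier results of these data known. It held 10 chaperones of the HSP70 and HSP90 class with their co-factors, 3 lectin chaperones and glycan enzymes, 8 enzymes of oxidative folding and proline isomerisation, 4 genes of ER-associated degradation, 4 stress sensors and transcription factors, and 7 genes of translocation and signal peptide processing. RNA-seq was done on human T-cell acute lymphoblastic leukemia (T-ALL) cell lines, in which the study compared cells depleted of QKI, an RNA-binding protein that regulates splicing, with controls, and profiled untreated lines. The 40 libraries formed 10 groups of 4. Jurkat cells, grown in 10% fetal calf serum, received QKI siRNA or a non-targeting (NTC) siRNA by electroporation, and their libraries are labelled as total RNA. The control columns of this table are headed shNTC and were taken as the NTC siRNA of the sample labels. A second pair of groups, labelled HPB-ALL and grown in 20% serum, was transduced with viral particles carrying a QKI shRNA or an NTC shRNA, and is labelled as poly(A) RNA from a stranded preparation. The labels do not say whether these cells were a pool or a clone. The untreated lines were LOUCY, TALL-1, DND-41 and ALL-SIL, grown in 10% serum, and KARPAS-45 and HPB-ALL, grown in 20% serum, all labelled as poly(A) RNA.

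Proteins that enter the secretory pathway are folded in the ER by HSPA5 (BiP), HSP90B1 (GRP94) and the lectin chaperones CALR and CANX, and protein disulfide isomerases such as P4HB, PDIA4 and PDIA6 form their disulfide bonds. When unfolded proteins accumulate, the membrane sensors ERN1 (IRE1), EIF2AK3 (PERK) and ATF6 are activated. ERN1 then splices the mRNA of the transcription factor XBP1, EIF2AK3 slows translation and induces ATF4, and cleaved ATF6 enters the nucleus. XBP1 and ATF6 induce chaperone genes through ER stress response elements in their promoters, a programme best known from antibody-secreting plasma cells. The values reported here are gene-level counts, which do not tell spliced from unspliced XBP1 mRNA.

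The sequences through which this programme acts are shown for 6 members, because their promoters hold its elements and their values carry the results described further on. Each is 250 bases before to 50 bases after a RefSeq transcription start on GRCh38.p14, written 5′ to 3′ on the strand of the gene, with the matches in capitals. The motifs searched on both strands were the ER stress response element ERSE (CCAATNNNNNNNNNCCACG), ERSE-II (ATTGG and CCACG with any 1 base between them) and the core of the unfolded protein response element UPRE (TGACGTGG). The windows of HSPA5 and HSP90B1, the ER forms of HSP70 and HSP90, were:
HSPA5 promoter (chr9:125241294-125241593, minus strand, ERSE): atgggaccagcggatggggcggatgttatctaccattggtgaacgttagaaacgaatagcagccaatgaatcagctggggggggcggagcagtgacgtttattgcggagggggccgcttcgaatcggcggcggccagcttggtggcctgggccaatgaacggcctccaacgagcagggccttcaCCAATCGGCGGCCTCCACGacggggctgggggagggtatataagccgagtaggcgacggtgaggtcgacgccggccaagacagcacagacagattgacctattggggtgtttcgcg
HSP90B1 promoter (chr12:103930160-103930459, plus strand, ERSE in both orientations): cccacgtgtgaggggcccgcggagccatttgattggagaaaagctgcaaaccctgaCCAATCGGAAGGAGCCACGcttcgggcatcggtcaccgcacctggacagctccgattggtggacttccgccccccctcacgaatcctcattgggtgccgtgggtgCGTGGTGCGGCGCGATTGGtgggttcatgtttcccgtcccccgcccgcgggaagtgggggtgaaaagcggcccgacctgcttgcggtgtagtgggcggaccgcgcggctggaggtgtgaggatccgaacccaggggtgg
The windows of XBP1 itself, of CRELD2, an ER resident folding factor, of HYOU1, a large nucleotide exchange factor of HSPA5, and of HERPUD1, a membrane organiser of ER-associated degradation, were:
XBP1 promoter (chr22:28800520-28800819, minus strand, ERSE): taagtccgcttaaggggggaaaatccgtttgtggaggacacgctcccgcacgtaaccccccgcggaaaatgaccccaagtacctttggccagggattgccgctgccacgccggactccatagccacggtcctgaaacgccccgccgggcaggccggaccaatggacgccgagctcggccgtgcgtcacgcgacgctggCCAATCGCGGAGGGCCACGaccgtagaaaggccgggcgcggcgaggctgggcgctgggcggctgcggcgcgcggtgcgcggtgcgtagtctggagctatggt
CRELD2 promoter (chr22:49918384-49918683, plus strand, ERSE on the opposite strand): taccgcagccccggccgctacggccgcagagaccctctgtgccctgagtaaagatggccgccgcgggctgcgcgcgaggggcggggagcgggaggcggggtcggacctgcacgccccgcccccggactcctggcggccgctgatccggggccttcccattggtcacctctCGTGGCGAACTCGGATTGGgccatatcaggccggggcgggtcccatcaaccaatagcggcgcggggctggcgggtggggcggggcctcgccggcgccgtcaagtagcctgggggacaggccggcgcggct
HYOU1 promoter (chr11:119057156-119057455, minus strand, ERSE-II in both runs of capitals, the one farther from the start also overlapping a UPRE core): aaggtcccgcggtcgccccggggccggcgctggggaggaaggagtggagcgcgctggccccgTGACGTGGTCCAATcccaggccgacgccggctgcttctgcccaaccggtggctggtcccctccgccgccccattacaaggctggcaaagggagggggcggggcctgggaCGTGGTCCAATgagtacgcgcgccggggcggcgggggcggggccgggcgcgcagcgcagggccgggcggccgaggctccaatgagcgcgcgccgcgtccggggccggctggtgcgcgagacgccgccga
HERPUD1 promoter (chr16:56931892-56932191, plus strand, ERSE-II): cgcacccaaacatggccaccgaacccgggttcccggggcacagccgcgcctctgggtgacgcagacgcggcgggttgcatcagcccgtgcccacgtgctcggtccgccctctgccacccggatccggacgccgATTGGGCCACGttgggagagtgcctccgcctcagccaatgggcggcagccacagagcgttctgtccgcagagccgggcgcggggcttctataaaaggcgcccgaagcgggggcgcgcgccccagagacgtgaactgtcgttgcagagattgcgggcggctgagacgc
RefSeq promoters were at hand for 35 of the 36 members. ERSE was found in the windows of 8 members (HSPA5, HSP90B1, CRELD2, CALR, CANX, PDIA6, ERO1B and XBP1) and in those of 0.0916% of all 27305 genes with a promoter. ERSE-II was found in HYOU1, SDF2L1 and HERPUD1 and in 0.0696% of these genes, and the UPRE core in HYOU1, DNAJC10 and SSR3 and in 0.927% of them. A match describes the sequence and is no evidence of binding.

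Library totals ranged between 68379879 and 115723891 counts with QKI siRNA and 103753086 and 134209287 counts with NTC siRNA in Jurkat, and between 119783229 and 134916505 counts with QKI shRNA and 81048583 and 127061690 counts with NTC shRNA in the libraries labelled HPB-ALL. In the untreated lines they ranged between 44093984 and 83952970 counts. QKI averaged 21.5 ± 4.22 CPM, counts scaled to the size of the library, with QKI siRNA and 148 ± 19.5 CPM with NTC siRNA in Jurkat (SD, n = 4 each), and 55.8 ± 1.42 CPM with QKI shRNA and 104 ± 2.55 CPM with NTC shRNA in the libraries labelled HPB-ALL (SD, n = 4 each). In edgeR's quasi-likelihood test its log2 fold change was -2.79 (SE 0.17, adjusted p = 0.000129) with the siRNA and -0.90 (SE 0.035, adjusted p = 1.1e-07) with the shRNA. The libraries labelled HPB-ALL in the knockdown went against that label. The summed CPM of 12 T-cell markers was 1.22 to 1.4 with QKI shRNA and 1.3 to 1.49 with NTC shRNA, with no marker above a mean of 1 CPM, against 6101 to 8832 in untreated HPB-ALL. Their 12 myeloid markers summed to 2980 to 3112 CPM with QKI shRNA and 3415 to 3575 CPM with NTC shRNA, against 15.1 to 34.7 CPM in untreated HPB-ALL. For that reason they keep the wording "labelled HPB-ALL" here, and no value of theirs was set against untreated HPB-ALL as a measure of the treatment.

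In the libraries labelled HPB-ALL, part of the folding machinery was lower with QKI shRNA, while none of the 4 sensors and transcription factors passed the test. Of the 35 members tested, 14 were called lower and 0 higher by edgeR's quasi-likelihood test at a Benjamini-Hochberg adjusted p under 0.05, in a comparison in which 10.4% of 17974 genes were called lower, 12.8% higher and 23.2% either way. The median log2 fold change was -0.11 over the members and -0.006 over all genes tested, and 6 of the 35 members had a positive value. FKBP2 was not tested, with at most 3 counts in any of these libraries. The sum of the 36 members was 9273 to 9446 CPM with QKI shRNA and 10031 to 10831 CPM with NTC shRNA. All 4 QKI shRNA libraries lay below all 4 NTC shRNA libraries for 16 members, the 14 called and EDEM1 and SSR3, and this held for 11.7% of all genes tested. In bulk libraries, fewer cells of a type and less RNA per cell cannot be told apart.

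**Figure D1:**
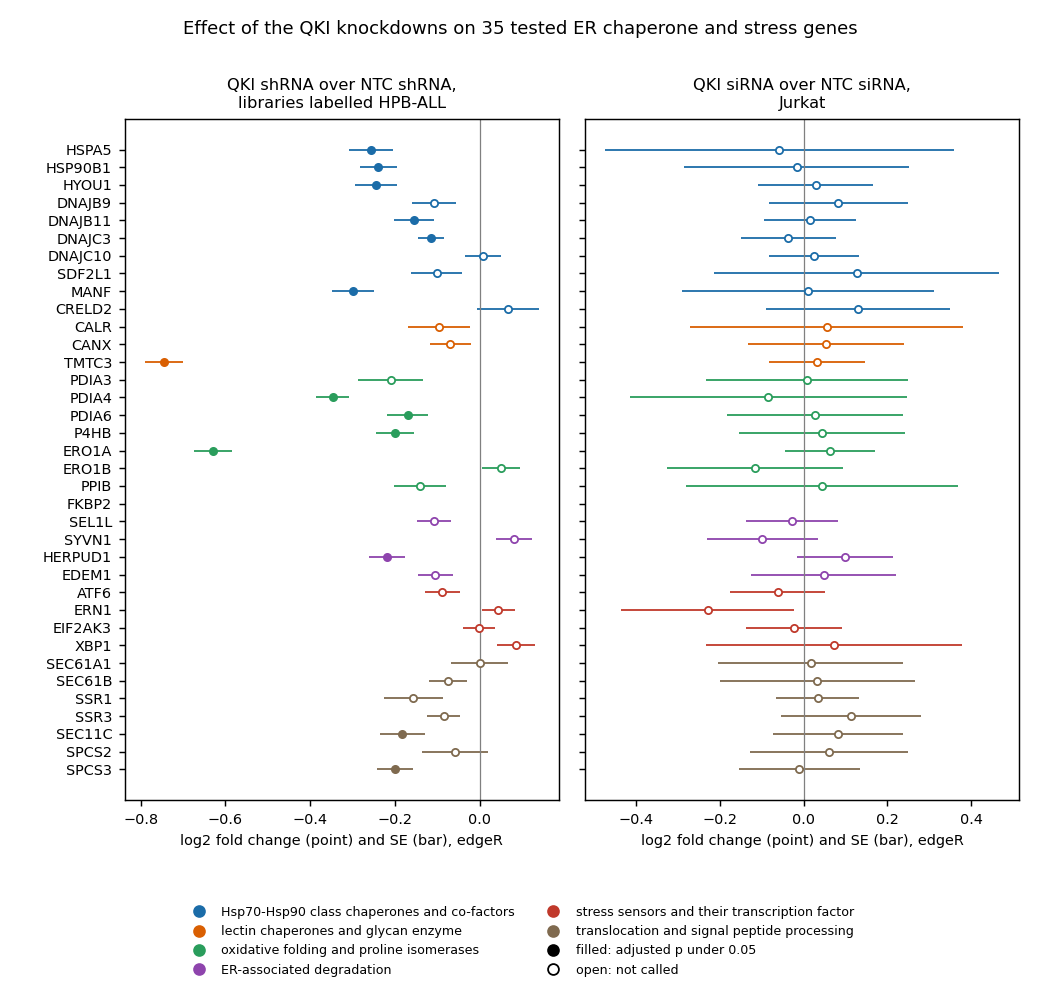
Log2 fold change of each of the 35 tested members (point) with its standard error (bar) in edgeR, for QKI shRNA over NTC shRNA in the libraries labelled HPB-ALL on the left and QKI siRNA over NTC siRNA in Jurkat on the right, coloured by role. Filled points, 14 on the left and 0 on the right, have an adjusted p under 0.05, and the 2 panels have different horizontal scales.

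The chaperones of the HSP70 and HSP90 class were the role with the most calls, 6 of 10 lower. HSPA5 had 532, 592, 524 and 582 CPM in the QKI shRNA libraries 1 to 4, against 679.8, 698, 633 and 652 CPM in the NTC shRNA libraries 1 to 4 (log2 fold change -0.26, SE 0.052, adjusted p = 0.0043 in edgeR). HSP90B1 had 591, 570.3, 567 and 592 CPM with QKI shRNA, against 684, 722, 647 and 685 CPM with NTC shRNA (log2 fold change -0.24, SE 0.043, adjusted p = 0.00221). In both genes every QKI shRNA library was below every control. MANF, a secreted ER protein that binds HSPA5, had 15.5, 16.7, 16.3 and 16.3 CPM with QKI shRNA, against 21.1, 19.05, 18.8 and 20.8 CPM with NTC shRNA (log2 fold change -0.30, SE 0.050, adjusted p = 0.00149). HYOU1 had 229, 224, 210.4 and 227 CPM with QKI shRNA, against 242, 277, 258 and 278 CPM with NTC shRNA (log2 fold change -0.25, SE 0.050, adjusted p = 0.0044). The groups did not overlap for either, and the lowest HYOU1 control, library 1, was the one nearest to the QKI shRNA libraries. DNAJB11 and DNAJC3, J-domain partners of HSPA5, had log2 fold changes of -0.16 (SE 0.047) and -0.12 (SE 0.031), with adjusted p of 0.0328 and 0.0192 in edgeR. The DNAJC3 call was lost without QKI shRNA library 3 (adjusted p = 0.06). The DNAJB11 call was lost without any 1 of NTC shRNA libraries 3 and 4 and QKI shRNA libraries 2, 3 and 4 (adjusted p of 0.0539 to 0.104 in edgeR). The other 4, DNAJB9, DNAJC10, SDF2L1 and CRELD2, were not called, with log2 fold changes between -0.11 for DNAJB9 and 0.068 for CRELD2.

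TMTC3 and ERO1A had the largest differences of all members. TMTC3, an ER membrane protein that transfers mannose to cadherins and other proteins, had 11.4, 11.9, 11.4 and 11.03 CPM in the QKI shRNA libraries, against 19.6, 18.9, 18.3 and 19.9 CPM in the NTC shRNA libraries (log2 fold change -0.75, SE 0.045, adjusted p = 1.43e-06 in edgeR). ERO1A, the oxidase that passes electrons on from the disulfide isomerases, had 120.0, 126, 132 and 128 CPM with QKI shRNA, against 184, 208, 198 and 193 CPM with NTC shRNA (log2 fold change -0.63, SE 0.045, adjusted p = 4.56e-06). In both, the gap between the groups was wider than the spread within either of them. The lectin chaperones proper were not called: CALR had a log2 fold change of -0.10 (SE 0.074) and CANX of -0.069 (SE 0.048), and the CALR controls, at 737, 837, 643 and 845 CPM, enclosed the QKI shRNA libraries, at 725, 721, 722 and 696 CPM.

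**Figure D2:**
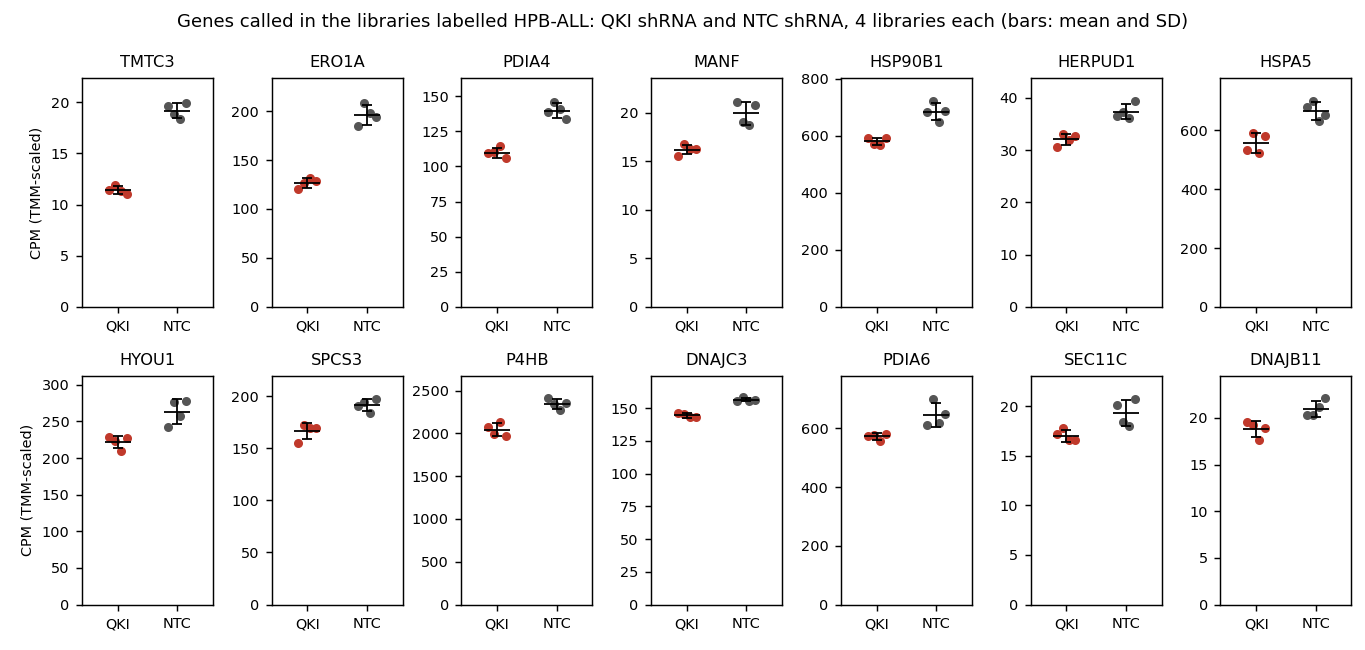
CPM of the 14 members called lower in the libraries labelled HPB-ALL, each point 1 library, with QKI shRNA in red left of NTC shRNA in grey, and the mean with SD of the 4 libraries. The vertical axes start at 0, and the gap is widest for TMTC3 and ERO1A, the first panels.

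Among the enzymes of oxidative folding, 4 of the 7 tested were called lower. PDIA4, a disulfide isomerase, had 109, 110.2, 114 and 106 CPM with QKI shRNA, against 138, 146, 141 and 134 CPM with NTC shRNA (log2 fold change -0.35, SE 0.039, adjusted p = 0.00011 in edgeR). P4HB, the disulfide isomerase that is also a subunit of prolyl 4-hydroxylase, had 2073, 1995, 2132 and 1971 CPM with QKI shRNA, against 2410.1, 2347, 2270.3 and 2355 CPM with NTC shRNA (log2 fold change -0.20, SE 0.045, adjusted p = 0.00773). PDIA6 had 575, 579, 556 and 581 CPM with QKI shRNA, against 609.8, 701, 618 and 648 CPM with NTC shRNA (log2 fold change -0.17, SE 0.048, adjusted p = 0.0238). All 3 separated the groups, PDIA4 most widely, and the PDIA6 call was lost without any 1 of 3 libraries: NTC shRNA library 2, the highest (adjusted p = 0.0586 in edgeR), QKI shRNA library 1 (0.0544) and QKI shRNA library 3 (0.0678). PDIA3 and the proline isomerase PPIB had log2 fold changes of -0.21 (SE 0.076) and -0.14 (SE 0.061) and were not called, at adjusted p of 0.0662 and 0.117. ERO1B, the second oxidase, had a log2 fold change of 0.051 (SE 0.045) and was not called. The exons of PPIB overlapped those of SNX22 over 27.2% of their length and the exons of PDIA6 overlapped those of ATP6V1C2 over 25.2%, in GENCODE 29, so reads from these stretches may be split or lost.

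HERPUD1 was the 1 called gene of the 4 in ER-associated degradation. It had 30.6, 33.03, 31.9 and 32.8 CPM with QKI shRNA, against 36.5, 37.2, 36.2 and 39.4 CPM with NTC shRNA (log2 fold change -0.22, SE 0.042, adjusted p = 0.00311 in edgeR). SEL1L and SYVN1, the scaffold and the ubiquitin ligase of the same complex, had log2 fold changes of -0.11 (SE 0.040) and 0.081 (SE 0.042), and EDEM1, which trims mannose from misfolded glycoproteins, of -0.10 (SE 0.042), with none called. In translocation and signal peptide processing, SPCS3 and SEC11C, subunits of the signal peptidase, were called of 7 genes. SPCS3 had 155, 173, 170.1 and 169.9 CPM with QKI shRNA, against 190.4, 195, 185 and 198 CPM with NTC shRNA (log2 fold change -0.20, SE 0.042, adjusted p = 0.00527). SEC11C had 17.2, 17.8, 16.6 and 16.6 CPM with QKI shRNA, against 20.1, 18.4, 18.04 and 20.8 CPM with NTC shRNA (log2 fold change -0.18, SE 0.053, adjusted p = 0.0273). Both separated the groups, SEC11C by a narrow margin, and the SEC11C call was lost without any 1 of NTC shRNA libraries 1 and 4 and QKI shRNA libraries 1, 3 and 4 (adjusted p of 0.0614 to 0.0801 in edgeR). The channel subunits SEC61A1 and SEC61B, the translocon-associated SSR1 and SSR3 and the signal peptidase subunit SPCS2 were not called, with log2 fold changes between -0.16 for SSR1 and 0.000 for SEC61A1.

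None of the sensors ERN1, ATF6 and EIF2AK3 was called, nor was the transcription factor XBP1. XBP1 had 294, 275, 300.3 and 308 CPM with QKI shRNA, against 280.0, 289.8, 263 and 274 CPM with NTC shRNA (log2 fold change 0.087 (SE 0.045)). ATF6 had 26.9, 26.5, 27.2 and 29.2 CPM with QKI shRNA, against 28.8, 28.8, 29.1 and 29.9 CPM with NTC shRNA (log2 fold change -0.088 (SE 0.041)). In XBP1 and ATF6 the groups overlapped. ERN1 had 64.2, 63.6, 65.9 and 62.7 CPM with QKI shRNA, against 58.8, 65.6, 62.9 and 61.4 CPM with NTC shRNA (log2 fold change 0.044 (SE 0.039)). EIF2AK3 had 27.5, 26.9, 26.96 and 27.95 CPM with QKI shRNA, against 27.99, 27.02, 27.9 and 26.5 CPM with NTC shRNA, the smallest difference among these genes (log2 fold change -0.002 (SE 0.038)). Adjusted p was 0.183 for XBP1, 0.145 for ATF6, 0.461 for ERN1 and 0.982 for EIF2AK3 in edgeR. XBP1 was thus not called in the libraries in which HSPA5, HSP90B1 and HERPUD1, whose promoters hold ERSE or ERSE-II, were lower. Of the 11 members with either element, 5 were called lower, and of the 24 with neither, 9.

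Of the 101 other genes of the same pathway 98 were tested, of which 17 (17.3%) were called lower and 3 (3.06%) higher by edgeR, beside 10.4% and 12.8% of all genes. Among other ER folding enzymes 4 of 28 tested were lower, with log2 fold changes of -0.34 (SE 0.044) for CALU, a calcium-binding protein of the ER, -0.28 (SE 0.050) for QSOX1, a sulfhydryl oxidase, and -0.25 (SE 0.047) and -0.22 (SE 0.041) for the proline isomerases FKBP14 and FKBP7. In ER-associated degradation 5 of 23 were lower: OS9 (-0.27), MAN1B1 (-0.21), EDEM2 (-0.18), RNF5 (-0.18) and EDEM3 (-0.14). Glycosylation and glycoprotein quality control had 5 of 14 lower, the oligosaccharyltransferase subunits STT3B (-0.31), DAD1 (-0.25) and RPN2 (-0.21), the folding sensor UGGT1 (-0.22) and the glucosidase subunit GANAB (-0.15). Among 18 other translocation genes SSR4 (-0.17) and SRP72 (-0.12) were lower and TRAM2 (0.17) was higher. Of 15 other signalling genes of the response, PPP1R15B, the constitutive partner of the phosphatase that restores translation, was lower (-0.20), and its stress-induced counterpart PPP1R15A (0.18) and TMBIM6 (0.21) were higher. The myeloid markers, which these libraries carried in place of T-cell markers, were also lower in part. Of the 11 tested, 6 were called lower, LYZ by -0.71, AZU1 by -0.47 and S100A9 by -0.46 on the log2 scale. None of the 12 listed was at 0 in every library, and 2 of 6 tested B-cell markers were lower. Their part in the difference between the groups was not tested.

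In Jurkat, no member was called, with or without the replicate number as a block, in a comparison in which 0.0047% of 21296 genes, QKI alone, were called without the block and 0.0423% with it. No member reached an unadjusted p under 0.05 without the block, against 186 of all genes, and 1 did with it, ERN1 at -0.21 (unadjusted p = 0.0488, adjusted p = 0.741 in edgeR), against 1416 of all genes. DESeq2 and limma-voom also called 0 members. The median log2 fold change was 0.029 over the 35 members tested and 0.001 over all genes tested, and 24 of the 35 were positive. The log2 fold changes lay between -0.23 for ERN1 (SE 0.21) and 0.13 for CRELD2 (SE 0.22). Within pairs of the same number, ERO1A and SSR1 were higher with QKI siRNA in all 4 and ERO1B and SYVN1 lower in all 4, which held for 7.75% of genes tested on the higher side and 8.21% on the lower side, and none of the 4 was called with the block. No member had all 4 QKI siRNA libraries on 1 side of all 4 controls, which held for 0.676% of genes tested on the lower side and 0.39% on the higher side.

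The spread within the Jurkat groups was wide and followed the replicate number rather than the siRNA. HSPA5 had 145, 69.4, 203 and 239 CPM in QKI siRNA libraries 1 to 4, against 140.2, 70.3, 262 and 210.0 CPM in NTC siRNA libraries 1 to 4. HSP90B1 had 454, 311, 581 and 727 CPM with QKI siRNA, against 481, 338, 654 and 624 CPM with NTC siRNA. Libraries 1 and 2 were low and libraries 3 and 4 high in both groups, so the groups overlapped over nearly their whole range. XBP1 had 33.2, 36.4, 56.98 and 68.5 CPM with QKI siRNA, against 34.4, 27.7, 66.3 and 57.1 CPM with NTC siRNA. CALR had 786, 651, 1285 and 1351 CPM with QKI siRNA, against 718, 535, 1393 and 1275 CPM with NTC siRNA. PDIA4 had 127, 133, 251.4 and 243 CPM with QKI siRNA, against 130.3, 119.6, 289.7 and 261 CPM with NTC siRNA. These genes had the same order, libraries 3 and 4 above libraries 1 and 2 in each group. ERN1 went the other way in the controls, with 86.3, 57.96, 61.8 and 57.03 CPM with QKI siRNA, against 100.3, 89.8, 59.7 and 58.5 CPM with NTC siRNA. ATF6 had 280.1, 247, 257 and 238 CPM with QKI siRNA, against 299, 277, 250.7 and 241 CPM with NTC siRNA, and EIF2AK3 49.1, 40.5, 44.9 and 44.7 CPM with QKI siRNA, against 52.1, 43.7, 44.4 and 41.9 CPM with NTC siRNA. ATF6 and EIF2AK3 varied little between libraries. The sum of all 36 members was 7293, 7020, 9161 and 9562 CPM in the QKI siRNA libraries, against 7401, 6558, 9530.4 and 8953 CPM in the NTC siRNA libraries.

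**Figure D3:**
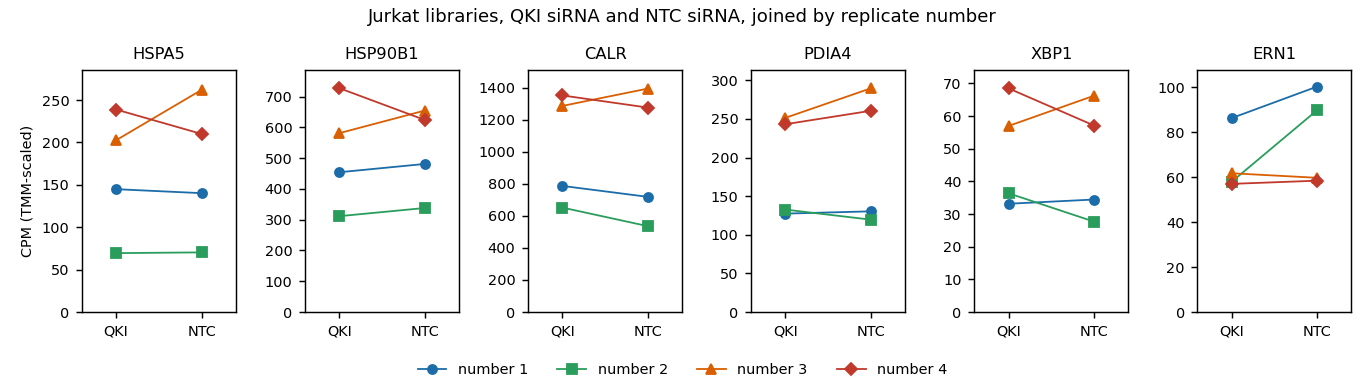
CPM of 6 members in the Jurkat libraries, QKI siRNA left of NTC siRNA, with libraries of the same replicate number joined by a line. Numbers 3 and 4 lie above numbers 1 and 2 in both groups for HSPA5, HSP90B1, CALR, PDIA4 and XBP1, and the lines do not share a direction.

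The effects of the 2 knockdowns differed by a test of the difference itself for TMTC3 and ERO1A. TMTC3 had 48.4, 57.9, 62.9 and 54.3 CPM with QKI siRNA, against 51.4, 55.3, 58.5 and 53.3 CPM with NTC siRNA in Jurkat, where ERO1A had 227, 193, 228 and 222 CPM with QKI siRNA, against 216, 187, 217 and 213 CPM with NTC siRNA. Neither gene separated the Jurkat groups, whereas both separated the libraries labelled HPB-ALL. Within the Jurkat pairs ERO1A was higher with QKI siRNA in all 4, by 0.08, 0.04, 0.07 and 0.06 on the log2 scale, and TMTC3 in 3 of 4. The log2 fold change in the libraries labelled HPB-ALL minus that in Jurkat was -0.79 (SE 0.11) for TMTC3 and -0.71 (SE 0.10) for ERO1A, each at an adjusted p of 0.00658 in edgeR. Of 15730 genes tested for the difference, 4 (0.0254%) were called, and 2 (0.0127% of the genes tested) were called on the lower side. Over the 35 members the median difference was -0.205 and 4 were positive, and over all genes the median was -0.008. With the replicate number as a block within each experiment, HERPUD1 was called as well, at -0.33 (SE 0.076) with an adjusted p of 0.0365 in edgeR. With this block 3.06% of genes were called, 1.81% on the lower side. Unadjusted p in edgeR was under 0.05 for 18 members with the block and 4 without it, against 19.9% and 6.17% of all genes. HERPUD1 had 292, 283, 230.4 and 246 CPM with QKI siRNA, against 263, 245, 243 and 229.9 CPM with NTC siRNA in Jurkat. The ERO1A difference was not called without NTC shRNA library 2, at an adjusted p of 0.0558. For the other 32 members no difference between the knockdowns was detected, and the libraries, RNA type, delivery and depth of knockdown also differ between these experiments and cannot be told apart from the cells.

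The untreated lines differed in nearly all members, as they did in nearly all genes. An edgeR test over the 6 lines called 33 of the 36 members, where 98% of 20348 genes were called, so the sizes of the differences are described in place of their number. The 3 members not called were SPCS2, SYVN1 and SEL1L. The test over the 6 lines used all libraries. Without replicate 4 of every line, all 3 were called in single lines against the other 5 in edgeR. SEL1L was at 0.91 in KARPAS-45 (SE 0.13, adjusted p = 9.83e-07) and -0.75 in LOUCY (SE 0.15, adjusted p = 0.000101). SYVN1 was at 0.29 in TALL-1 (SE 0.085, adjusted p = 0.00487) and SPCS2 at -0.35 in KARPAS-45 (SE 0.11, adjusted p = 0.00576). Nothing in the labels says that the 4 libraries of a line came from separate cultures, and p-values then measure only the spread between these samples. Over the 33 members with a mean over 1 CPM in every line, the highest line was between 1.46 and 16 times the lowest, with a median of 2.86. Replicate 4 of LOUCY stood apart from the other LOUCY libraries in these genes, and counts of members are therefore given with all libraries and without replicate 4 of every line. Of the single contrasts of members, only some are described, and those whose call, direction or fold depended on it are in part given both ways. A member called and at least 2-fold from the mean of the other 5 lines was found as follows. LOUCY had 13 members higher and 1 lower (22.7% and 15.1% of all genes), and without replicate 4 of every line 3 higher and 2 lower (23.2% and 14.5%). KARPAS-45 had 4 higher and 5 lower (22.9% and 23.5%), and without replicate 4 it had 7 and 5 (23.2% and 22.8%). HPB-ALL had 2 higher and 2 lower (24% and 9.3%), and without replicate 4 it had 2 and 3 (23.5% and 9.72%). TALL-1 had 4 higher and 1 lower (16.8% and 11.5%), and without replicate 4 it had 8 and 1 (17.2% and 11%). DND-41 had 3 higher and 2 lower (18.9% and 9.03%), and without replicate 4 it had 4 and 2 (19.9% and 8.85%). ALL-SIL had 4 higher and 2 lower (18.1% and 11.4%), and without replicate 4 it had 4 and 2 as well (18.6% and 11.1%). Except for the higher members of LOUCY with all libraries and of TALL-1 without replicate 4, the members' shares were below or near those of all genes. XBP1 was among the higher members of LOUCY, TALL-1, DND-41 and ALL-SIL, and the reference of each contained HPB-ALL, which was nearly without it. ERO1B, nearly absent from ALL-SIL, enters the reference of the other lines in the same way. The counts also hold FKBP2, whose highest line mean was 0.431 CPM. Without replicate 4 of every line it was among the lower members of KARPAS-45 (-3.94). It was then among the higher members of TALL-1 (1.65) and ALL-SIL (1.24).

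**Figure D4:**
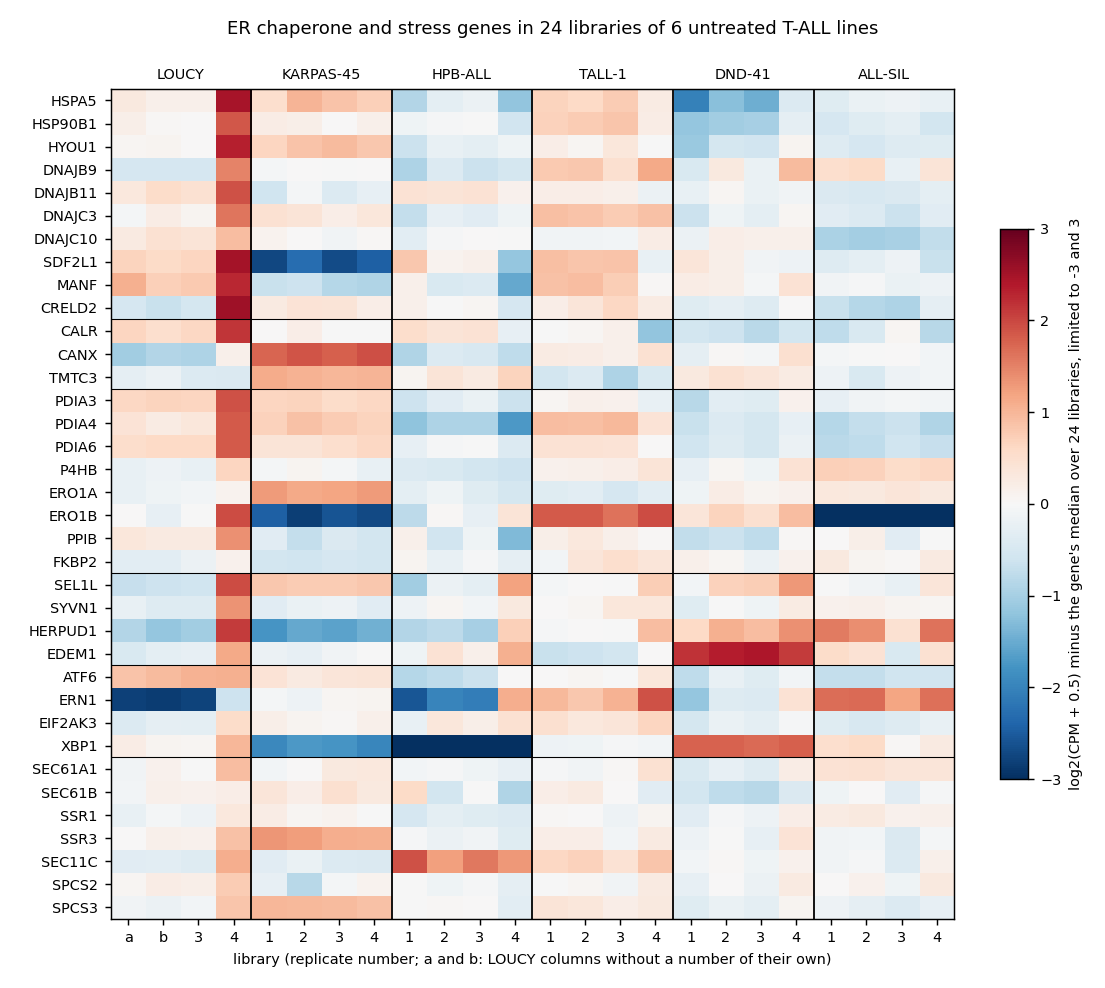
Level of the 36 members (rows, grouped by role) in the 24 untreated libraries (columns), as log2(CPM + 0.5) minus the median of the gene over the 24 libraries, limited to -3 and 3. Replicate 4 of LOUCY is red for most rows, XBP1 is at the lower limit in all 4 HPB-ALL libraries, and ERO1B is at it in all 4 ALL-SIL libraries.

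The widest range among the lines was that of XBP1, the transcription factor of the ERN1 branch. Untreated HPB-ALL held 3 XBP1 counts in all 4 libraries together, a pooled level of 0.014 CPM with an exact Poisson 95% interval of 0.00288 to 0.0408 CPM, which covers counting error only. DND-41 had 805, 810.1, 775 and 821 CPM, the highest line, and LOUCY had 277, 254, 249 and 471 CPM. ALL-SIL had 339, 354, 244 and 285 CPM and TALL-1 215, 218, 232 and 225 CPM. LOUCY and ALL-SIL overlapped, TALL-1 was below both, and KARPAS-45, at 61.6, 71.6, 69.4 and 61.3 CPM, was below every library of these 4 lines. The mean of DND-41 was 57500 times the pooled HPB-ALL level, with a counting interval of 19700 to 279000, and the mean of KARPAS-45 was 4730 times it, with an interval of 1620 to 22900. Fitted contrasts of single lines include this near absence and give no bound. In the libraries labelled HPB-ALL XBP1 was at 294, 275, 300.3 and 308 CPM with QKI shRNA, against 280.0, 289.8, 263 and 274 CPM with NTC shRNA, which adds a second measure by which they differ from untreated HPB-ALL.

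XBP1 lies on chromosome 22 between 28794555 and 28800597 on the minus strand (GRCh38, GENCODE 29), and no other annotated gene overlapped its exons. Its nearest neighbour, CCDC117, 5254 bases away, averaged 69.2 ± 9.66 CPM in HPB-ALL (SD, n = 4) and between 48.3 and 150.3 CPM in the other lines. ZNRF3, the nearest gene on the other side at 82995 bases, averaged 0.18 ± 0.066 CPM in HPB-ALL (SD, n = 4), 1.55 ± 0.61 CPM in TALL-1, 1.45 ± 0.383 CPM in ALL-SIL and between 9.87 and 29.3 CPM in the other lines. HPB-ALL was thus within the range of the other lines for CCDC117 and below it for XBP1 and ZNRF3. Genes farther out did not share the low level. KREMEN1, beyond ZNRF3, averaged 5.10 CPM in HPB-ALL, against 0.011 to 87.3 CPM in the other lines. On the side of CCDC117, CHEK2 averaged 23.8 CPM, against 16.5 to 57.8 CPM, and HSCB 11.9 CPM, against 6.89 to 9.65 CPM. C22orf31 was at most 0.218 CPM on average in any line. HPB-ALL, nearly without XBP1, was the lowest line for 8 members with all libraries: XBP1, DNAJB9, CANX, PDIA3, PDIA4, P4HB, SSR1 and SSR3. The other lines were lowest for 1 to 10 members. Without replicate 4 of every line HPB-ALL was lowest for 6, and the other lines for 3 to 9. The chaperone HSPA5 was present in HPB-ALL. HSPA5 had 172, 256, 279 and 138 CPM in the 4 HPB-ALL libraries, which overlapped ALL-SIL, at 245, 274, 284 and 269 CPM, and DND-41, at 76.5, 130.4, 114 and 236 CPM. DND-41, with the most XBP1, had the least HSPA5 and HSP90B1 of the 6 lines, at log2 fold changes against the other 5 of -1.52 (SE 0.34) and -1.01 (SE 0.25), with adjusted p of 0.000436 and 0.00103 in edgeR. Without replicate 4 of every line these were -1.77 and -1.18. EDEM1, in contrast, was highest in DND-41, at a mean of 586 CPM. The part of XBP1 in these levels was not tested.

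The sensors ranked the lines in other ways. ERN1 had 12.1, 11.8, 12.3 and 56.4 CPM in LOUCY (libraries a, b, 3 and 4, where a and b are columns without a number of their own). In HPB-ALL it had 14.2, 21.8, 20.2 and 187 CPM and in DND-41 38.7, 66.3, 65.1 and 118 CPM. In each of these lines replicate 4 was the highest library, by a wide gap in LOUCY and HPB-ALL. KARPAS-45 had 84.3, 78.4, 90.4 and 92.8 CPM, TALL-1 172, 154, 180.2 and 328 CPM and ALL-SIL 279, 283, 198 and 275 CPM. ERN1 of LOUCY against the other 5 lines was -2.32 (SE 0.55) with an adjusted p of 0.000701 in edgeR, and -2.74 without replicate 4 of every line. ERN1 of HPB-ALL was -0.64 (SE 0.49) and not called, at an adjusted p of 0.261, and without replicate 4 it was -2.04 (SE 0.16, adjusted p = 5.87e-11), so replicate 4 ended that call. ALL-SIL and TALL-1 were higher, at 1.86 (SE 0.41) and 1.49 (SE 0.42), with adjusted p of 0.000329 and 0.00338. Without replicate 4 these were 2.49 in ALL-SIL and 1.81 in TALL-1. ATF6 had 157, 167, 177 and 179.6 CPM in LOUCY, the highest line, and was called there at 1.19 (SE 0.11), adjusted p = 4.13e-10. ALL-SIL had 52.4, 52.4, 56.5 and 57.9 CPM, the lowest line mean with all libraries. HPB-ALL had 46.9, 50.2, 55.02 and 87.1 CPM and was below ALL-SIL without replicate 4 of every line, at log2 fold changes of -0.83 for HPB-ALL and -0.72 for ALL-SIL. ATF6 in LOUCY replicate 4 did not stand apart from the other LOUCY libraries. EIF2AK3 was the most even sensor, with line means between 39.3 CPM in ALL-SIL and 69.3 CPM in TALL-1.

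**Figure D5:**
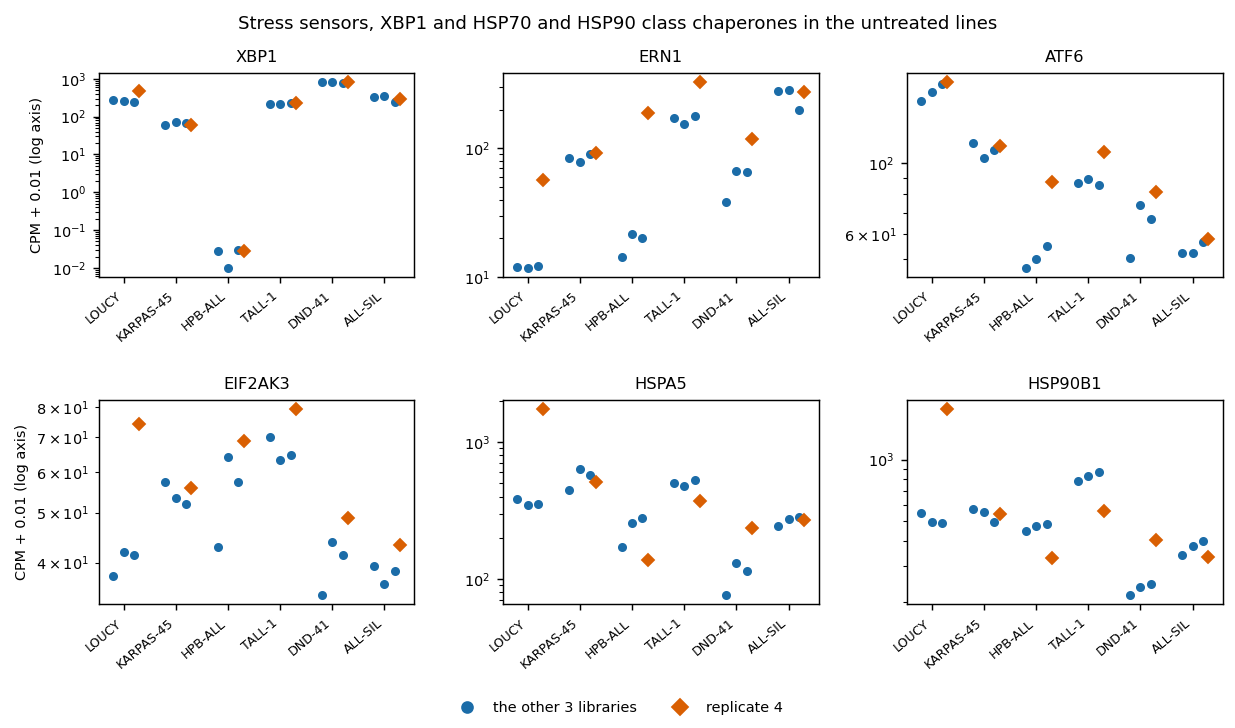
CPM + 0.01 on a log axis of XBP1, the sensors ERN1, ATF6 and EIF2AK3, and HSPA5 and HSP90B1 in each untreated library. Replicate 4 of each line is an orange diamond and the other 3 libraries are blue points. XBP1 is near 0.01 to 0.03 in HPB-ALL alone, and replicate 4 lies far above the other LOUCY libraries for HSPA5, HSP90B1 and ERN1.

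ERO1B, an oxidase with a narrower tissue range than ERO1A, was the other member nearly missing from a line. ALL-SIL had 0.0556, 0.0398, 0.128 and 0.0435 CPM, from 2 to 7 counts a library, and KARPAS-45 had 1.21, 0.814, 1.05 and 0.936 CPM. TALL-1 had 32.9, 32.6, 28.3 and 35.8 CPM, the highest line, and DND-41 11.5, 14.4, 12.6 and 17.1 CPM. The ALL-SIL and KARPAS-45 libraries were below every library of the other lines. In edgeR the log2 fold change against the other 5 lines was -6.99 (SE 0.53) for ALL-SIL, -2.38 (SE 0.37) for KARPAS-45 and 3.63 (SE 0.24) for TALL-1, at adjusted p of 2.09e-11, 2.72e-06 and 2.17e-12, and the KARPAS-45 and TALL-1 values contain the low ALL-SIL counts in their reference. ERO1B of LOUCY was 1.525 (SE 0.15, adjusted p = 3.25e-09 in edgeR) without replicate 4 of every line. With 1 library left out it was between 1.439 and 2.528, the lowest without LOUCY replicate 4. ERO1A kept a level of 149.9, 147, 156 and 147 CPM in ALL-SIL, and its highest line was KARPAS-45, at 289, 266, 273 and 291 CPM.

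KARPAS-45 combined the highest CANX with the lowest SDF2L1. CANX, the membrane lectin chaperone, had 1610.0, 1783, 1665 and 1843 CPM in KARPAS-45, and no library of another line was above 668 CPM (log2 fold change 2.03, SE 0.13, adjusted p = 7.64e-13 in edgeR). SDF2L1, a co-factor of HSPA5 and its J-domain partners, had 4.78, 6.68, 4.96 and 5.92 CPM in KARPAS-45, below every library of the other lines (log2 fold change -3.004, SE 0.36, adjusted p = 4.79e-08). HERPUD1 was also lowest there, with 24.6, 29.4, 27.8 and 31.3 CPM (log2 fold change -2.18, SE 0.49, adjusted p = 0.000287), and ERO1A, TMTC3 and the translocon subunit SSR3 were at least 2-fold higher, at 1.30, 1.16 and 1.15. The HSP70 group was thus split in this line, with HSPA5 and HYOU1 at 0.83 and 0.82 and MANF at -1.10.

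Other lines had 1 or 2 members of their own far from the rest. DND-41 had 547, 622, 655 and 519.9 CPM of EDEM1, against at most 266 CPM in any library of the other lines (log2 fold change 2.20, SE 0.19, adjusted p = 4.2e-10 in edgeR). HPB-ALL had 136, 84.6, 108 and 88.9 CPM of the signal peptidase subunit SEC11C (log2 fold change 1.47, SE 0.16, adjusted p = 1.83e-08) and the least PDIA4 (log2 fold change -1.41, SE 0.21, adjusted p = 3.06e-06). ALL-SIL had 255, 226, 117 and 266 CPM of HERPUD1, with replicate 3 the low library (log2 fold change 1.34, SE 0.37, adjusted p = 0.00315), and the least DNAJC10, a J-domain reductase (log2 fold change -1.03, SE 0.11, adjusted p = 7.55e-09). FKBP2, a proline isomerase, reached at most 0.566 CPM in any library of the series and is listed with a low count throughout. Its span is shared over 99.9% with the RefSeq gene LOC114841035, so reads of this stretch cannot be assigned with certainty.

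With counts scaled for exon length as well as depth (RPKM), which allows levels to be compared between genes, CALR ranked first of the 36 members in LOUCY, KARPAS-45, HPB-ALL, TALL-1, ALL-SIL and both Jurkat groups. In DND-41 XBP1 ranked first, at 265 ± 6.43 RPKM, above CALR at 175 ± 14.1 (SD, n = 4 each). In the libraries labelled HPB-ALL P4HB ranked first, at 385 ± 13.9 with QKI shRNA and 442 ± 10.8 with NTC shRNA, and CALR second, at 264 ± 4.95 with QKI shRNA and 282 ± 35 with NTC shRNA (SD, n = 4 each).

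Replicate 4 of LOUCY had most of the chaperone programme raised together. The 36 members summed to 18172 CPM in replicate 4, against 6794, 6750.4 and 6779 CPM in libraries a, b and 3. Taken as a single library it has no replicate check and no test. It was at least 2-fold above the mean of the other 3 LOUCY libraries in 23 of the 36 members, while 7.77% of 19264 genes were at least 2-fold above. In it 0 members were at least 2-fold below, against 8.67% of genes. The median ratio was 2.64 over the members and 0.992 over all genes. HERPUD1 had 46.2, 38.1, 41.2 and 369.7 CPM in libraries a, b, 3 and 4, a ratio of 8.84 for replicate 4. CRELD2 had 22.4, 20.01, 21.95 and 189 CPM (8.81), HSPA5 385, 348, 351 and 1737 CPM (4.81) and HYOU1 272, 275, 264 and 1311 CPM (4.85). In all of these libraries a, b and 3 lay close together. By role, 9 of 10 HSP70 and HSP90 class members, 2 of 3 lectin chaperones and glycan enzymes, 6 of 8 oxidative folding genes and 4 of 4 in ER-associated degradation were at least 2-fold higher. Among the sensors and transcription factors 1 of 4 was, ERN1, and among translocation genes 1 of 7. TMTC3, ATF6, SEC61B and ERO1A were the least changed, with ratios of 0.891, 1.08, 1.08 and 1.19. Of the 11 members with ERSE or ERSE-II, 10 were at least 2-fold higher, with a median ratio of 3.65, and of the 24 with neither, 12 were, with a median of 2.02.

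Genes beyond the members moved with replicate 4 of LOUCY. Of 98 other pathway genes 14 were at least 2-fold higher. DERL3, which retrotranslocates misfolded glycoproteins and was also among the plasma cell markers, had 12.7, 8.29, 8.39 and 232 CPM in libraries a, b, 3 and 4. Of 15 other signalling genes of the response, 6 were at least 2-fold higher in replicate 4 (ATF4, DDIT3, PPP1R15A, TRIB3, WFS1 and CEBPB) and CHAC1 was at most 0.5 times the others, beside 7.77% and 8.67% of all genes. TRIB3, a target of ATF4, had 83.6, 70.03, 72.02 and 678 CPM, DDIT3 (CHOP) 13.3, 8.69, 9.23 and 71.3 CPM and PPP1R15A 12.4, 11.97, 11.1 and 96.4 CPM. In DERL3, TRIB3, DDIT3 and PPP1R15A replicate 4 was the high library and the others lay close together. CHAC1, another target of ATF4, had 0.127, 0.0818, 0.0363 and 0.0389 CPM, at 2 to 7 counts a library. The 8 plasma cell markers summed to 489 CPM in replicate 4 and 85.3 to 126 CPM in the other LOUCY libraries, the 12 myeloid markers to 69.0 CPM in replicate 4 and 97.6 to 109 CPM in the others, and the 12 T-cell markers to 3814 CPM in replicate 4 and 3723 to 4536 CPM in the others. Their part in the pattern was not tested. The consequence for the LOUCY contrasts was large. CRELD2 was 1.04 (SE 0.33) against the other 5 lines with all libraries (adjusted p = 0.00752 in edgeR) and -0.48 (SE 0.090, adjusted p = 5.27e-05) without replicate 4 of every line, a change of direction. HYOU1 was 1.07 (SE 0.25) and called (adjusted p = 0.000624) with all libraries, and 0.18 (SE 0.11, adjusted p = 0.151) without replicate 4, which ended the call. HSPA5 was 1.29 with all libraries and 0.38 without replicate 4, whereas ATF6 was 1.19 and 1.29.

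In the members, replicate 4 of the other lines differed from that of LOUCY. Its median ratio over the members to the mean of the other 3 libraries was 1.3 in DND-41, 1.1 in TALL-1, 1.03 in ALL-SIL, 0.994 in KARPAS-45 and 0.872 in HPB-ALL, and over all genes it lay between 0.982 in ALL-SIL and 1.04 in HPB-ALL. In HPB-ALL it had 3 members at least 2-fold above the mean of the other 3 libraries and 3 at least 2-fold below (9.12% and 9.71% of all genes). ERN1 had a ratio of 10, SEL1L of 3.16 and HERPUD1 of 3.07, and SDF2L1, MANF and PPIB had ratios of 0.332, 0.392 and 0.44. HSPA5, at 172, 256, 279 and 138 CPM, was lowest in replicate 4 there. The 15 other signalling genes of the response had 6 at least 2-fold higher in this library, as in replicate 4 of LOUCY (DDIT3, PPP1R15A, TRIB3, CHAC1, TMBIM6 and CEBPB). Replicate 4 of TALL-1 also had 6 (DDIT3, PPP1R15A, TRIB3, CHAC1, CREB3L1 and CEBPB), that of DND-41 had 1 and that of KARPAS-45 had 0. TRIB3 had 88.4, 83.8, 65.3 and 693 CPM in HPB-ALL and 108, 147, 169 and 1119.9 CPM in TALL-1, and PPP1R15A 34.1, 29.2, 24.8 and 162 CPM in HPB-ALL, with replicate 4 the highest library each time. In TALL-1 replicate 4 had 0 members 2-fold above and 2 below (8.46% and 7.61% of all genes). In DND-41 it went in part the way of LOUCY, with 3 members above, HSPA5, DNAJB9 and ERN1 at ratios of 2.2, 2.07 and 2.08, and 0 below (5.55% and 8% of all genes). HSP90B1 had 216, 236, 243 and 404 CPM in DND-41, and the 36 members summed to 7756 CPM in replicate 4 of this line, against 5455, 6383 and 5982 CPM in libraries 1 to 3. ERN1, HERPUD1 and TRIB3 were thus high in replicate 4 of LOUCY, HPB-ALL and TALL-1, and ERN1 in that of DND-41 as well, while HSPA5 was high in that of LOUCY and DND-41 and low in that of HPB-ALL and TALL-1. Over all genes tested, replicate 4 of LOUCY deviated from its group mean partly as replicate 4 of other lines did. The correlations were 0.38 with TALL-1, 0.344 with HPB-ALL, 0.226 with DND-41, 0.196 with ALL-SIL and 0.09 with KARPAS-45. With libraries 1 to 3 of HPB-ALL and TALL-1 they were -0.328 to -0.074, but with ALL-SIL replicate 1 the value was 0.315. What these libraries share was not tested.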

How the data were processed

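RNA-seq of 40 T-ALL libraries in 10 groups of 4 was analysed from 3 gene-level count tables deposited by the authors. The deposited unit is the raw count of reads, whole numbers per gene with no normalization. Per the submitters' processing notes, reads were handled with Trimmomatic 0.39 and STAR 2.7.11b on GRCh38. No source used here gives the counting tool or its strand setting, so reads of overlapping genes cannot be assigned with certainty. Rows that name no gene (unmapped, no feature, ambiguous) were present in the table labelled HPB-ALL, held 13 to 15.1% of its counts and stayed out of the library sizes and the tests. Symbols were taken for 62700 of 62754 gene IDs, with exon lengths and coordinates from GENCODE 29 where stated.

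Each table was fitted separately with edgeR 4.0.16 (R 4.3.3): filterByExpr, TMM normalization, the quasi-likelihood F test and Benjamini-Hochberg adjustment over all genes tested, with a call at 0.05. CPM are TMM-scaled within a table, and levels in different tables are set side by side only as values. The comparisons were QKI siRNA over NTC siRNA in Jurkat, QKI shRNA over NTC shRNA in the libraries labelled HPB-ALL, the difference between these effects over all 16 knockdown libraries, any difference among 6 untreated lines, and every line against the averaged other 5. The scripts were tested on simulated counts.

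The members, their roles and the other gene lists were chosen with earlier results of these data known. Named in full were members called in a knockdown (up to the 12 with the smallest p), members called in the difference, the 12 largest called line contrasts of at least 4-fold, and HSPA5, HSP90B1, XBP1, ATF6, ERN1 and EIF2AK3. Of these contrasts, FKBP2 in KARPAS-45 and ERO1B in LOUCY are given without the values of every library. Further genes (SEC11C, DNAJB11 and those given for a line or for LOUCY replicate 4) were chosen after their values were seen.

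Same-numbered Jurkat libraries deviated together from their group means, with correlations of 0.644 to 0.803 in 4 pairs. In the 12 pairs of different number the correlations were -0.754 to 0.639. Among these, QKI siRNA library 4 with NTC siRNA library 3 had 0.639 and library 3 with library 4 had 0.621, near the lowest same-numbered pair. The numbers therefore pair these samples in part, beside a split of libraries 1 and 2 from 3 and 4. The main fits did not use the numbers, and the replicate block did. In the libraries labelled HPB-ALL the correlations were -0.207 to 0.035, and the numbers do not pair them. Between untreated lines they were -0.209 to 0.497 in 50 pairs of the same number and -0.513 to 0.394 in the 190 others. No 2 replicates agreed within sampling noise (chi-square over degrees of freedom between 12.7 and 348.2). Alternatives were edgeR's RLE size factors, no filter on low counts, DESeq2 1.42.0, limma-voom (limma 3.58.1), the replicate block, a test against a 1.2-fold change, and leaving out each library. The knockdown libraries are described as biological replicates.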

Additional observations from a re-analysis of the deposited data

Results flagged for a closer look

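In a group of 4 libraries, a value was marked when the gap between the most extreme library and its nearest neighbour exceeded 0.829 of the group's range (Dixon's test). Chance marks about 1 in 20 groups, and 31 of 190 sets of 4 values (19 named members in 10 groups, 16.3%) were marked, 15 of them for replicate 4 of LOUCY. Sets with at most 3 counts in every library, such as XBP1 in HPB-ALL, were not tested but stay among the 190. The share of tested sets was therefore above 16.3%. Members are not independent of each other within a library.

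Replicate 4 of LOUCY was the far library on the high side for HSPA5 (1737 CPM), HSP90B1 (1772 CPM), HYOU1 (1311 CPM), DNAJC3 (238 CPM), SDF2L1 (196 CPM), MANF (316 CPM), PDIA4 (571 CPM), PDIA6 (1064 CPM), P4HB (741 CPM), ERO1B (35.6 CPM), HERPUD1 (370 CPM), ERN1 (56.4 CPM), EIF2AK3 (74.3 CPM), XBP1 (471 CPM) and SPCS3 (365 CPM). Its depth was within the range of the untreated libraries. The next libraries of the line were at 385 CPM for HSPA5, 46.2 CPM for HERPUD1 and 12.3 CPM for ERN1.

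Replicate 4 was also the far library in TALL-1, at 29.4 CPM for SDF2L1, 210 CPM for PDIA4 and 296 CPM for PDIA6 on the low side, and at 164 CPM for HERPUD1, 108 CPM for ATF6 and 328 CPM for ERN1 on the high side. In HPB-ALL it was the far library at 142 CPM for HERPUD1 and 187 CPM for ERN1 on the high side and 164 CPM for SPCS3 on the low side. In DND-41 it stood apart for HSP90B1, at 404 CPM. Replicate 3 of ALL-SIL was low for ERN1, at 198 CPM.

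In the knockdowns, QKI siRNA library 1 of Jurkat was high for ERN1 (86.3 CPM) and for FKBP2 (0.0379 CPM, where the other 3 libraries were at 0), and NTC siRNA library 2 was low for ERO1A (187 CPM). Among the libraries labelled HPB-ALL, QKI shRNA library 1 was low for SPCS3 (155 CPM), and NTC shRNA library 2 was high for DNAJC3 (158 CPM, with the next at 156 CPM).

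The effect of the QKI shRNA in the libraries labelled HPB-ALL minus the effect of the QKI siRNA in Jurkat differed by edgeR's test for TMTC3, at -0.79 on the log2 scale, and for ERO1A, at -0.71.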

How the results depend on the processing

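Of 460 counts of called members recomputed under alternatives, 424 stayed within 1.5 times the value reported and 36 moved. Of 731 values of single genes, 692 kept their direction and side of the threshold, 19 lost the call, 1 gained it and 19 changed sign.

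In the libraries labelled HPB-ALL, 14 members were lower, 11 with the replicate block (SEC11C, DNAJC3 and DNAJB11 lost the call; same-numbered libraries were not paired), between 10 and 15 with 1 library left out, and 2 against a 1.2-fold change. DNAJC3 was also lost without a filter on low counts (adjusted p = 0.15). EIF2AK3 changed sign near 0, at 0.014 without a filter and between -0.015 and 0.011 with 1 library left out. For the difference between knockdowns, 1 member in place of 2 was called without a filter, as ERO1A was lost (adjusted p = 0.0988), and between 1 and 2 with 1 library left out. In Jurkat no alternative called a member, and with 1 library left out the log2 fold changes were between -0.315 and 0.226 for HSPA5, -0.226 and 0.164 for HSP90B1, -0.139 and 0.295 for XBP1, and -0.071 and 0.047 for EIF2AK3.

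Among members at least 2-fold from the other lines, the LOUCY count higher was 7 with limma-voom, between 4 and 14 with 1 library left out, the 4 without LOUCY replicate 4, and 3 without replicate 4 of every line, an alternative chosen after seeing the data. The LOUCY count lower was 0 with DESeq2, which gave ERN1 no adjusted p, between 1 and 4 with 1 library left out, and 2 without replicate 4. Without replicate 4 the count higher was 7 in KARPAS-45 and 8 in TALL-1. The count lower in DND-41 was 1 without a filter and between 1 and 2 with 1 library left out. In HPB-ALL it was 4 with the replicate block and between 2 and 5 with 1 library left out, in ALL-SIL 5 with the block and between 2 and 4, and in TALL-1 between 0 and 1. The causes were not tested. LOUCY columns without a number stayed out of the block.

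The limits of these data are the 4 libraries a group, the unknown origin of replicates of the lines, the libraries labelled HPB-ALL that lack T-cell markers, counts that do not show XBP1 splicing, and differences in RNA type and delivery between the experiments.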

Other observations

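Genes downstream of EIF2AK3 and ATF4 that are no members differed widely among the untreated lines. DDIT3 (CHOP), a transcription factor of prolonged ER stress, had 3.60, 3.33, 2.79 and 2.79 CPM in KARPAS-45, against 13.3, 8.69, 9.23 and 71.3 CPM in LOUCY, 59.8, 60.8, 60.7 and 73.3 CPM in DND-41 and 60.4, 54.2, 23.8 and 80.5 CPM in ALL-SIL. Of 15 signalling genes of the response tested, 5 were called and at least 2-fold lower in KARPAS-45 (DDIT3, PPP1R15A, TRIB3, CHAC1 and CEBPB), while 5 were higher in DND-41 (DDIT3, TRIB3, CHAC1, CREB3L1 and CEBPB) and 6 in ALL-SIL (those 5 and PPP1R15A), by edgeR with all libraries, beside 23.5% of all genes lower in KARPAS-45, 18.9% higher in DND-41 and 18.1% higher in ALL-SIL. HPB-ALL had 3 higher (DDIT3, CHAC1 and WFS1) and 2 lower (CREB3L1 and CREB3L2), beside 24% and 9.3%, TALL-1 had 3 higher and 0 lower, beside 16.8% and 11.5%, and LOUCY had 2 higher and 1 lower, beside 22.7% and 15.1%. In the other direction there was 1 higher in KARPAS-45, 1 lower in DND-41 and 2 lower in ALL-SIL. CHAC1, which degrades glutathione, had 26.3, 24.9, 28.7 and 22.01 CPM in DND-41 and 19.6, 17.2, 2.57 and 17.8 CPM in ALL-SIL, against 0.228, 0.143, 0.101 and 0.199 CPM in KARPAS-45 and 0.127, 0.0818, 0.0363 and 0.0389 CPM in LOUCY. Replicate 3 of ALL-SIL was the low library for DDIT3 and CHAC1 as it was for the member ERN1.

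Some genes of the ER were present in some lines and nearly absent in others. TUSC3, a subunit of the oligosaccharyltransferase, had 50.1, 59.6, 55.5 and 47.5 CPM in HPB-ALL and 33.9, 29.6, 29.8 and 28.5 CPM in KARPAS-45, against 0, 0, 0 and 0.0194 CPM in TALL-1 and 0, 0, 0.0183 and 0 CPM in ALL-SIL. WFS1, an ER membrane protein mutated in Wolfram syndrome, had 22.3, 23.6, 20.1 and 18.4 CPM in HPB-ALL and 11.5, 10.1, 12.7 and 17.7 CPM in TALL-1, against 0, 0, 0 and 0 CPM in ALL-SIL.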
